A study of Homo sapiens with 12 samples.

Results

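Transcript levels of 45 genes that repair DNA crosslinks or excise damaged bases were followed on 12 bead arrays of SK-OV-3, a line of human ovarian cancer cells. The 45 genes were chosen by name and role, with earlier results of these data known. They fall into 5 pathways: the Fanconi pathway with its nucleases, homologous recombination, translesion synthesis, nucleotide excision repair, and the checkpoint that signals damaged or stalled replication. A probe that carried the gene's name was found for 42 of them, and FANCA, FANCD2 and BRCA2 were not analysed here. Of the 42 genes, 39 had a probe that stood above the negative controls (detection p-value under 0.05) on at least 3 of the 12 arrays, and these 39 were tested among 17988 features in all, 12492 of them named genes. RAD18 and ERCC4 lay just inside that limit, detected on 3 and 5 arrays, while BRIP1, ATR and FANCM lay outside it with 2, 1 and 0 arrays and were not tested.

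Cisplatin binds purine bases and links them, mostly within a strand and less often across both strands of the helix. Links within a strand are cut out by nucleotide excision repair, in which a damage sensor recruits the helicases of TFIIH and nucleases that cut on either side. A link across strands stops the replication fork. There the Fanconi core complex and UBE2T attach ubiquitin to FANCI and FANCD2, nucleases unhook the link, a translesion polymerase copies past it, and recombination with the sister strand restores the fork. ATR, with TOPBP1 and CHEK1, and ATM, with CHEK2, hold the cell cycle meanwhile. Ovarian tumours are treated with platinum drugs, and inherited loss of recombination genes such as BRCA1, BRCA2, PALB2 or RAD51C predisposes to cancer of the ovary or breast.

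Per the labels, cells were transfected with a scrambled shRNA (shCTRL) or with an shRNA against IRF-1 (shIRF1), a transcription factor of the interferon response, and were either left without CDDP (cisplatin) or taken after 24 hours of it. This gave 4 groups of 3 arrays, 1 array per sample. All 4 groups therefore share the cell line and a transfected shRNA. The labels give neither the dose of CDDP nor whether replicates were grown separately, so p-values measure only the spread between these samples. Whole-culture RNA was measured, so fewer cells of a type and less RNA per cell cannot be told apart.

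Each array detected 18075 to 21126 of 47313 probes, and arrays of 1 group correlated at 0.974 to 0.987. The number of arrays limits the precision. Among markers of the line, KRT7, KRT8, EPCAM, PAX8 and ERBB2 were detected on all 12 arrays, KRT18 on 11, MUC16 on 5 and WT1 on 3. CD3E, COL3A1, VWF and CDH5, defining markers of T cells, fibroblasts and endothelium, were detected on 0 arrays and the leukocyte marker PTPRC on 1. Other markers of those cell types were detected: CD68 and CD14 of myeloid cells on 12 and 10 arrays, COL1A1, DCN and PDGFRB of fibroblasts on 12, 2 and 1, and PECAM1 of endothelium on 3. Their part in the results was not tested. In log2 normalized intensity, IRF1 without CDDP read 8.30, 8.51 and 7.84 under shCTRL and 8.59, 8.14 and 8.20 under the shIRF1 label. These ranges overlap and the shRNA's target was no lower on average, so the label is kept here only as a name. With CDDP it read 9.97, 10.38 and 9.38 under shCTRL and 8.94, 9.08 and 9.26 under the shIRF1 label, ranges that do not overlap (limma adjusted p = 0.0811).

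The first question was which repair transcripts changed with 24 hours of CDDP. Under shCTRL, 10 of the 39 genes rose, 4 fell and 25 did not pass. The genes that rose were EXO1, RAD54L, EME1, UBE2T, XPC, XRCC3, ERCC2, FANCB, PALB2 and RAD51C, and those that fell were FANCC, REV3L, ATM and REV1. On the arrays labelled shIRF1, 17 rose, 2 fell and 20 did not pass, and the 2 that fell were FANCC and ATM. The 17 became 9 with median scaling of the arrays and 10 without shIRF1 replicate 1, the 4 that fell under shCTRL became 2 without shCTRL replicate 1, and the 2 that fell became 1 with median scaling. With replicate numbers fitted as a block, the 10 that rose under shCTRL became 12 and the 4 that fell stayed 4. With median scaling these 2 counts became 7 and 3. A change was called at an adjusted p under 0.05 in limma, with Benjamini-Hochberg adjustment over all 17988 features. CDDP changed much of the transcriptome: among all features 13.5% were called higher and 13.5% lower under shCTRL, and 10.5% higher and 11.5% lower under the shIRF1 label. The share of repair genes called higher was 25.6% and 43.6%, and the share called lower 10.3% and 5.13%. Their median log2 change was 0.25 under shCTRL and 0.42 under the shIRF1 label, where the medians of all features were 0.04 and 0.02. The arrays with and without CDDP did not overlap for 18 of the 39 genes under shCTRL and for 26 under the shIRF1 label, beside 40.2% and 36.9% of all features.

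**Figure D1:**
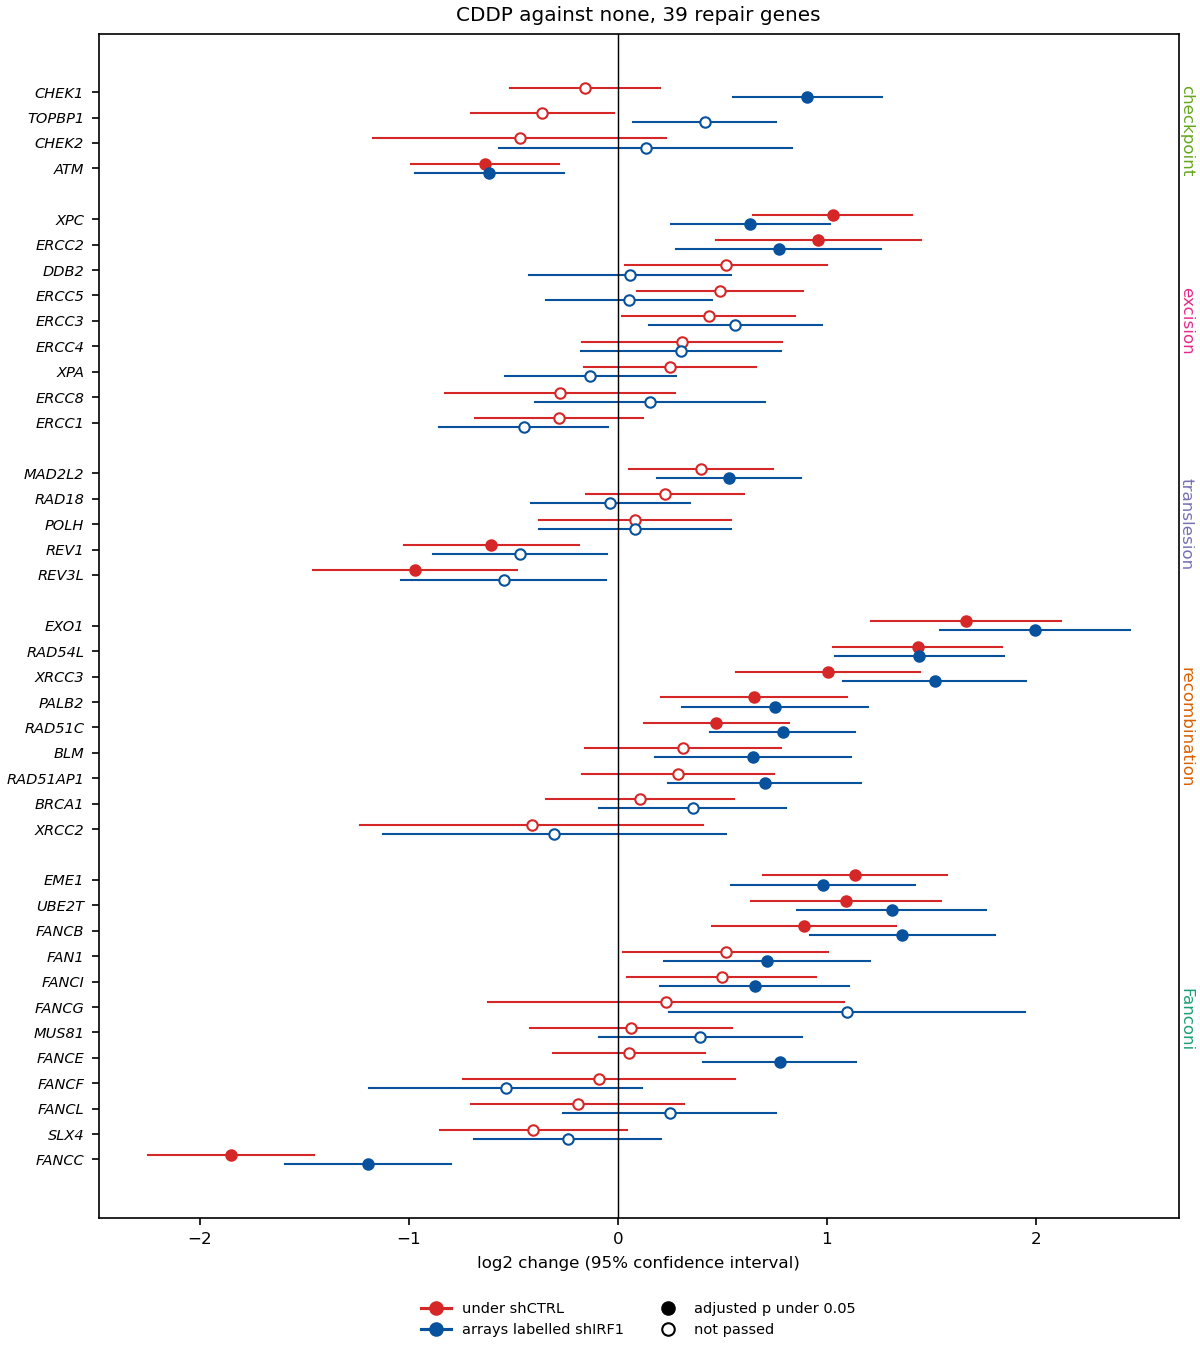
Log2 change with CDDP (horizontal axis, with 95% confidence intervals) of the 39 repair genes by pathway, in red under shCTRL and in blue on the arrays labelled shIRF1, with filled points for an adjusted p under 0.05. Most filled points lie to the right of 0, led by EXO1 at 1.67 and 1.99, and FANCC lies farthest to the left at -1.85 and -1.19.

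Both CDDP comparisons contrast different arrays and can be set side by side. Their calls are not independent, since all 12 arrays were normalized together and gave 1 estimate of spread per feature. Of the 14 genes called under shCTRL, 12 were also called under the shIRF1 label, 10 higher and 2 lower, and none was called in opposite directions. These 12 are 85.7% of the calls under shCTRL and 63.2% of the 19 under the shIRF1 label; among all features the shared calls are 60.7% and 74.3%. The log2 changes of the 39 genes correlated at 0.848 across genes, near the 0.826 of all features, and genes are not independent replicates.

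The bases just upstream of 4 genes that rose in both CDDP comparisons and of FANCC, which fell in both, are shown because these genes are among those called in each CDDP comparison and under all settings in which they were tested. FANCC was not tested under the stricter detection rule (detection p-value under 0.01 on all 12 arrays). Each run holds the 250 bases before the gene's start, 5′ to 3′ on the gene's strand, from RefSeq on GRCh38.p14. Capitals mark matches on either strand to an E2F motif (TTTCCCGC or TTTGGCGC), the CHR element (TTTGAA) or a CCAAT box. EXO1 lies at chr1:241847954-241848203 on the plus strand, RAD54L at chr1:46247438-46247687 on the plus strand, XRCC3 at chr14:103715452-103715701 on the minus strand, UBE2T at chr1:202341937-202342186 on the minus strand and FANCC at chr9:95317710-95317959 on the minus strand.
EXO1: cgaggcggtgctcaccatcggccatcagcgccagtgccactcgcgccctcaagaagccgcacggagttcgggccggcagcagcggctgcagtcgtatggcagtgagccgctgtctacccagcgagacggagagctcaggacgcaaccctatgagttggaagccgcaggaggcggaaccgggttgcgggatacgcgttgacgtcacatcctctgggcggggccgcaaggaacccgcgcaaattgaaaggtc
RAD54L: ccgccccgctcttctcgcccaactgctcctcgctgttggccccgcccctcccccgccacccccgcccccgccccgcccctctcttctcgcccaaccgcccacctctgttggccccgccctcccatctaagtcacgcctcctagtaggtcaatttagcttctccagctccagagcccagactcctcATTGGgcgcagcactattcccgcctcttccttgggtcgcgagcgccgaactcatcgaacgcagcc
XRCC3: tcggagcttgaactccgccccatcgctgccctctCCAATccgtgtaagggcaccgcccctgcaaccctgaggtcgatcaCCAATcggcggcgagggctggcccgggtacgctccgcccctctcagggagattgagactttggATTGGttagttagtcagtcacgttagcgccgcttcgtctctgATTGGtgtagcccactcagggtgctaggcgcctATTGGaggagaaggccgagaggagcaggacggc
UBE2T: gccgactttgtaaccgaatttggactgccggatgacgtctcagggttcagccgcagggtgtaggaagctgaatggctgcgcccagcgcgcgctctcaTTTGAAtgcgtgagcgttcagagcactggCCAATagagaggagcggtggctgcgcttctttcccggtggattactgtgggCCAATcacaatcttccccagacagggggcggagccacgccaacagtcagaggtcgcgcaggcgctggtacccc
FANCC: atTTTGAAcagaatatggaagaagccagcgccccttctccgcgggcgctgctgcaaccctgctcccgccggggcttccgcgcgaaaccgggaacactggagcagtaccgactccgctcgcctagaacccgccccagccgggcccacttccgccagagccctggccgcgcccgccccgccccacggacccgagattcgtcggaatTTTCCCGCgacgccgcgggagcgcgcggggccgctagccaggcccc

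In these runs EXO1 holds none of the 3 motifs, RAD54L holds 1 CCAAT box 65 bases before the start, and XRCC3 holds 5 CCAAT boxes, the nearest 33 bases before it. UBE2T holds a CHR match 153 bases before the start and CCAAT boxes at 124 and 73 bases. FANCC holds an E2F match 46 bases before the start and a CHR match at 248 bases. Promoters were found for 44 of the 45 genes and searched from 250 bases before to 50 bases after the start. The CCAAT box stood in 17 of the 44 (38.6%), beside 35.7% of 27305 promoters, and the CHR element in 4 (9.09%), beside 15.4%. The E2F motif stood in 4 of the 44 promoters (9.09%), those of FANCD2, XPC, XRCC2 and FANCC, beside 2.31% of all. The interferon-stimulated element and the p53 element, named without letters, were found in 0 of the 44, beside 3.65% and 0.0293% of all promoters. A match in these letters is a description and not a bound site, and the absence of one says nothing about the factor.

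Of the 9 recombination genes tested, 5 rose under shCTRL and 7 under the shIRF1 label, and none fell, with median log2 changes of 0.47 and 0.75. The shares that rose were 55.6% and 77.8%, beside 13.5% and 10.5% of all features. EXO1, the exonuclease that resects broken ends and also serves mismatch repair, read 8.38, 8.07 and 8.05 without CDDP and 9.80, 10.05 and 9.65 with it under shCTRL. On the arrays labelled shIRF1 it read 6.91, 7.13 and 7.65 without CDDP and 9.12, 9.50 and 9.06 with it. Each treated array stood above every untreated array under the same shRNA. The change was 1.67 on the log2 scale under shCTRL (SE 0.213, 3.17-fold, limma adjusted p = 3.43e-05) and 1.99 under the shIRF1 label (3.98-fold, limma adjusted p = 9.18e-06). A dimmer EXO1 probe rose by 1.74 and 1.70.

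RAD54L, a DNA motor of homologous recombination, read 7.36, 7.14 and 7.22 without CDDP and 8.65, 8.86 and 8.51 with it under shCTRL. On the arrays labelled shIRF1 it read 6.82, 7.45 and 7.09, then 8.53, 8.77 and 8.40. The groups with CDDP lay wholly above those without, and the changes were nearly equal, 1.43 (SE 0.191, 2.70-fold, limma adjusted p = 4.82e-05) and 1.44 (2.72-fold, limma adjusted p = 6.11e-05). XRCC3, which acts in homologous recombination, read 7.15, 7.36 and 7.50 without CDDP and 8.05, 8.44 and 8.55 with it under shCTRL. With the shIRF1 label it read 6.29, 6.82 and 6.34, then 7.94, 8.27 and 7.79. No array with CDDP overlapped one without, and XRCC3 rose by 1.01 (limma adjusted p = 0.0018) and by 1.52 (limma adjusted p = 7.75e-05).

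PALB2, which links BRCA1 to BRCA2, read 6.35, 6.78 and 5.89 without CDDP and 7.09, 6.88 and 6.99 with it under shCTRL, a rise of 0.65 (limma adjusted p = 0.0301). PALB2 under the shIRF1 label rose by 0.75, from 5.96, 6.12 and 6.16 to 7.05, 6.77 and 6.67 (limma adjusted p = 0.0168). The treated arrays stood above the untreated in both. RAD51C, a partner of XRCC3, rose by 0.47 under shCTRL (limma adjusted p = 0.0435) and by 0.79 under the shIRF1 label (limma adjusted p = 0.00244) at its brightest probe. Its other probes did not move alike: under shCTRL they gave -0.07 and 0.11 (limma adjusted p = 0.821 and 0.735), and under the shIRF1 label 0.04 (0.919) and 0.59 (0.0349). RAD51AP1, which promotes strand invasion, and BLM, a helicase that resolves recombination intermediates, passed under the shIRF1 label alone, with rises of 0.70 (limma adjusted p = 0.0292) and 0.65 (limma adjusted p = 0.0475). Under shCTRL they gave 0.29 and 0.31, and neither difference between the responses passed (limma adjusted p = 0.785 and 0.831). BRCA1, which directs resection and recombination, gave 0.11 and 0.36 with CDDP, and XRCC2, which acts in recombination, gave -0.41 and -0.30. Neither passed. The 3 XRCC2 arrays labelled shIRF1 without CDDP were spread over 8.35 to 10.36. A dimmer XRCC2 probe, detected on 5 arrays, gave 0.03 and 0.33 with CDDP (limma adjusted p = 0.94 and 0.333).

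In the Fanconi pathway and its nucleases, 3 of 12 genes rose and 1 fell under shCTRL, and 6 rose and 1 fell under the shIRF1 label. The shares that rose were 25% and 50%, beside 13.5% and 10.5% of all features. The share that fell was 8.33% in each, beside 13.5% and 11.5%. UBE2T, the ubiquitin-conjugating enzyme of the pathway, read 9.19, 9.67 and 9.34 without CDDP and 10.52, 10.50 and 10.46 with it under shCTRL. On the arrays labelled shIRF1 it read 8.79, 9.50 and 9.14, then 10.30, 10.80 and 10.25. All treated arrays were above all untreated ones, with rises of 1.09 (SE 0.213, limma adjusted p = 0.00123) and 1.31 (limma adjusted p = 0.000372). EME1, the partner of the MUS81 nuclease, rose from 5.82, 6.25 and 6.05 to 7.02, 7.27 and 7.23 under shCTRL, by 1.13 (SE 0.207, limma adjusted p = 0.000735). EME1 under the shIRF1 label rose from 5.33, 5.99 and 6.11 to 6.90, 6.73 and 6.75, by 0.98 (limma adjusted p = 0.00279). In neither case did the groups overlap. MUS81 itself gave 0.06 and 0.40 and did not pass.

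FANCB, a subunit of the core complex, read 5.58, 5.79 and 5.62 without CDDP and 6.47, 6.68 and 6.51 with it under shCTRL, a rise of 0.89 (SE 0.207, limma adjusted p = 0.00449). With the shIRF1 label it read 4.74, 5.25 and 4.49 without CDDP, where 1 of the 3 arrays detected the probe, and 6.20, 6.45 and 5.92 with it, a rise of 1.36 (limma adjusted p = 0.000205). Its other probe gave 0.60 (limma adjusted p = 0.0632) and 0.76 (0.026). Treated arrays were higher at the brighter probe throughout. FANCC, another core subunit, went the other way. It read 6.69, 6.99 and 6.44 without CDDP and 5.11, 4.77 and 4.68 with it under shCTRL, where 1 of the 3 treated arrays detected it. With the shIRF1 label it read 6.80, 6.77 and 6.85, then 5.79, 5.48 and 5.56. The groups did not overlap, with falls of 3.61-fold (log2 change -1.85, SE 0.186, limma adjusted p = 3.63e-06) and 2.29-fold (log2 change -1.19, limma adjusted p = 0.000262). The size rests on the background correction of a dim probe: without it FANCC fell by 0.82 and by 0.60 on the log2 scale, and both passed.

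FANCE, the core subunit that binds FANCD2, read 8.03, 7.91 and 8.16 without CDDP and 8.22, 7.93 and 8.11 with it under shCTRL, ranges that overlap. It rose under the shIRF1 label from 7.18, 7.45 and 7.44 to 8.27, 8.21 and 7.92, by 0.78 (limma adjusted p = 0.00398), with no overlap. FANCI, the partner of FANCD2, and FAN1, a crosslink nuclease, rose by 0.66 and 0.72 under the shIRF1 label (limma adjusted p = 0.0369 for both). Under shCTRL they gave 0.50 and 0.52 and missed the threshold (limma adjusted p = 0.0982 and 0.117), and FANCI passed when replicate numbers were fitted as a block (limma adjusted p = 0.0474). FANCG, a core subunit, read 9.53, 9.70 and 7.60 with CDDP under shCTRL, so that 1 array stood well below the rest. All FANCG arrays labelled shIRF1 with CDDP (9.62, 9.33 and 9.57) were above those without (8.26, 8.71 and 8.26), a change of 1.10 that did not pass (limma adjusted p = 0.0634) and passed with the block (0.0332). FANCF, FANCL and the nuclease scaffold SLX4 gave changes between -0.54 and 0.25 over both comparisons, and none passed.

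The translesion genes were split. REV3L, the catalytic subunit of DNA polymerase zeta, read 5.79, 5.67 and 5.60 without CDDP under shCTRL and was not detected on any treated array, where it read 4.94, 4.61 and 4.59. On the background-corrected scale REV3L was at least 1.68-fold lower there, a bound that holds on that scale only. The log2 change itself was -0.97 (limma adjusted p = 0.00501), and without background correction REV3L fell by 0.37. REV3L under the shIRF1 label read 5.54, 5.23 and 5.99 without CDDP and 4.57, 5.24 and 5.31 with it, and these ranges overlap (log2 change -0.55, limma adjusted p = 0.108). REV1, the scaffold that seats the translesion polymerases, read 8.63, 8.43 and 8.63, then 7.64, 8.02 and 8.21 under shCTRL. It fell by 0.60 without overlap (limma adjusted p = 0.0319), and its other probe fell by 0.76 (0.00541). MAD2L2, the REV7 subunit of polymerase zeta, instead read 11.22, 11.16 and 11.29 without CDDP and 11.63, 11.83 and 11.81 with it under the shIRF1 label, a rise of 0.53 (limma adjusted p = 0.0269). Under shCTRL its change of 0.40 did not pass (0.0826), though the arrays did not overlap. POLH, the polymerase that bypasses cisplatin links within a strand, gave 0.08 in both comparisons, with 95% intervals of -0.38 to 0.54. RAD18, which marks PCNA to bring these polymerases, was detected on 3 arrays in all, none of them labelled shIRF1. It gave 0.22 under shCTRL. Its -0.03 under the shIRF1 label compares groups without detection, so it measures no change.

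Of the 9 excision repair genes, 2 rose in each CDDP comparison and none fell. The share that rose was 22.2% in each, beside 13.5% and 10.5% of all features. Of all features 13.5% and 11.5% fell. With 9 genes these counts lie near those shares. XPC, the sensor that opens global genome repair, read 7.64, 7.96 and 7.91 without CDDP and 8.86, 8.99 and 8.73 with it under shCTRL. Under the shIRF1 label it read 8.23, 7.89 and 8.13, then 8.97, 8.63 and 8.56. Treated arrays were higher throughout, by 1.03 (SE 0.178, limma adjusted p = 0.000481) and 0.64 (limma adjusted p = 0.0178). ERCC2, a helicase of TFIIH, rose from 6.06, 6.09 and 5.76 to 6.88, 7.07 and 6.84 under shCTRL, by 0.96 (SE 0.23, limma adjusted p = 0.00554). ERCC2 under the shIRF1 label read 5.63, 5.30 and 6.13, then 6.73, 6.61 and 6.02. Those ranges overlap, which no other called change with CDDP showed, and the change was 0.77 (limma adjusted p = 0.0248).

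The other excision genes did not pass in either CDDP comparison. Under shCTRL the changes of DDB2 (a sensor of damage in chromatin), ERCC5 (the nuclease that cuts on the 3′ side) and ERCC3 (the other TFIIH helicase) were 0.52, 0.49 and 0.43, with limma adjusted p-values of 0.108, 0.0655 and 0.117. ERCC5 passed with replicate numbers as a block (limma adjusted p = 0.0314). DDB2 read 5.61, 5.95 and 6.09 without CDDP and 6.62, 6.34 and 6.24 with it under shCTRL, without overlap, and under the shIRF1 label 5.48, 5.96 and 5.96, then 5.40, 6.20 and 5.97, with full overlap. The ERCC3 change under the shIRF1 label was 0.56 (limma adjusted p = 0.0504). ERCC1 and ERCC4, which together cut on the 5′ side, gave -0.28 and 0.31 under shCTRL and -0.45 and 0.30 under the shIRF1 label. ERCC4 was detected on 5 of 12 arrays, and another ERCC1 probe passed under shCTRL with -0.68 (limma adjusted p = 0.0492). XPA, the scaffold that verifies damage, and ERCC8, of transcription-coupled repair, gave changes between -0.27 and 0.25.

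Of the 4 checkpoint genes, 1 fell under shCTRL, and 1 rose and 1 fell under the shIRF1 label. With 4 genes, 1 call is 25%. Of all features, 13.5% fell under shCTRL, and 10.5% rose and 11.5% fell under the shIRF1 label. ATM, the kinase that answers double-strand breaks, read 8.05, 7.85 and 7.77 without CDDP and 7.26, 7.24 and 7.28 with it under shCTRL. ATM under the shIRF1 label read 8.07, 8.04 and 8.25, then 7.30, 7.48 and 7.73. Treated arrays were lower in both, by log2 changes of -0.63 (SE 0.167, limma adjusted p = 0.0101) and -0.61 (limma adjusted p = 0.0148), and its other probe gave -0.69 and -0.66. CHEK1, the kinase that ATR activates to stop the cycle, read 8.45, 8.38 and 8.22 without CDDP and 8.29, 8.09 and 8.20 with it under shCTRL, ranges that overlap. Under the shIRF1 label CHEK1 rose from 7.47, 7.78 and 7.87 to 8.47, 8.66 and 8.71, by 0.91 (SE 0.168, limma adjusted p = 0.00104), with every treated array above every untreated one. TOPBP1, which activates ATR, gave -0.36 (limma adjusted p = 0.118) and 0.42 (limma adjusted p = 0.0819), and CHEK2, the effector kinase of ATM, -0.47 (limma adjusted p = 0.334) and 0.13 (limma adjusted p = 0.839). None of these passed, but another CHEK2 probe gave -0.68 under shCTRL (limma adjusted p = 0.049).

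**Figure D2:**
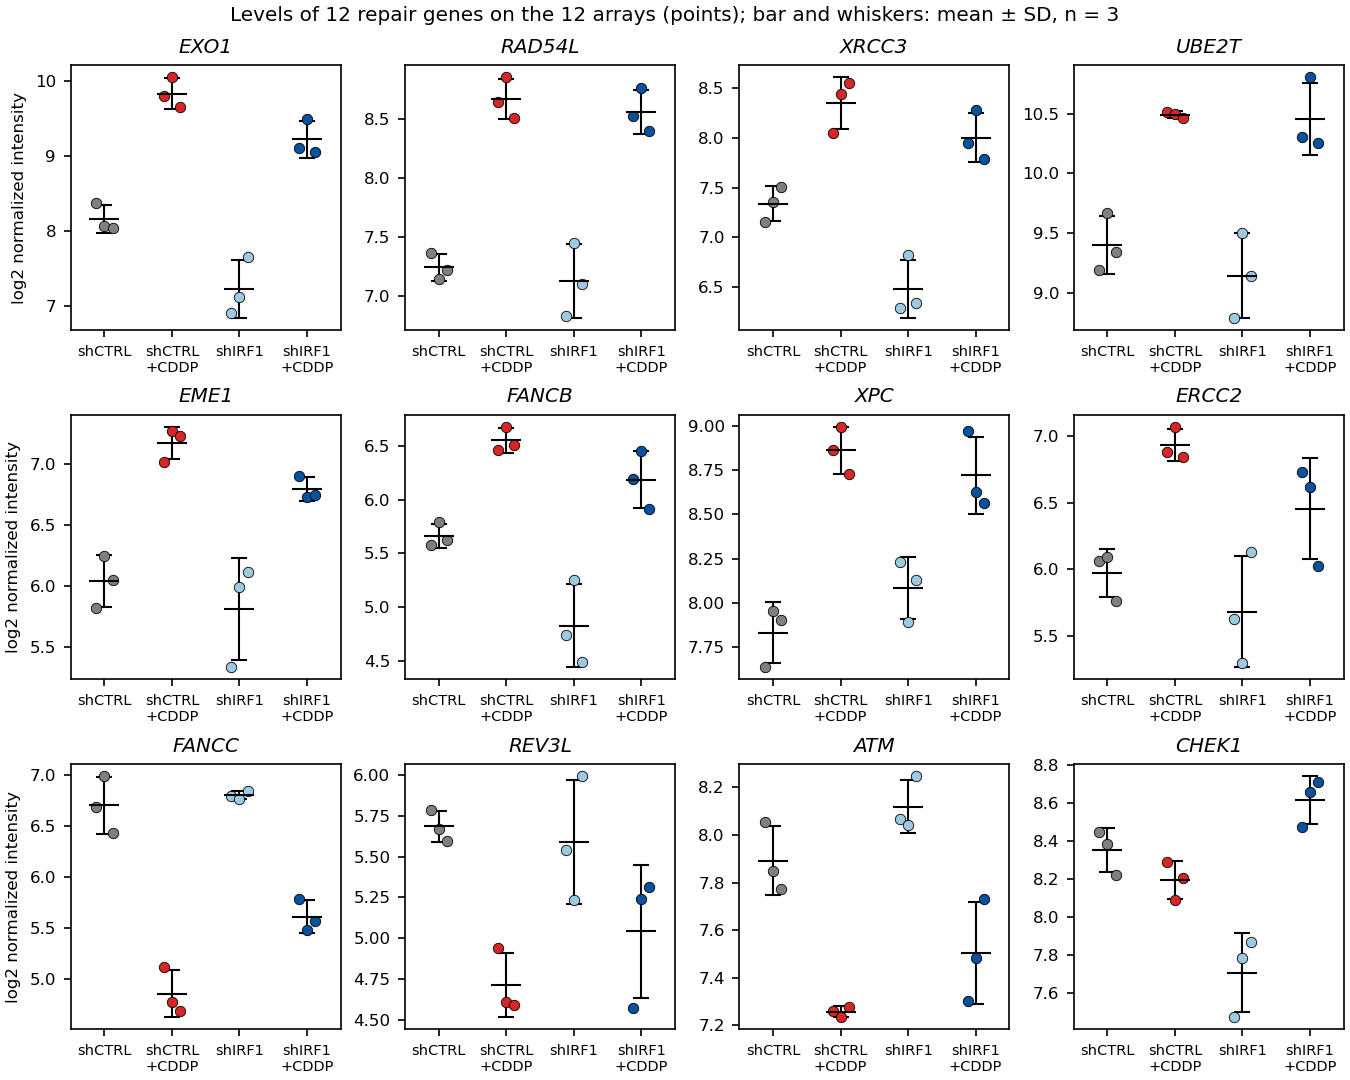
Log2 normalized intensity (vertical axes, each with its own range) of 12 repair genes on the 12 arrays, as points in the 4 groups with mean ± SD (n = 3). EXO1, RAD54L, XRCC3, UBE2T, EME1, FANCB and XPC stand higher on all arrays with CDDP than on those without under the same shRNA, FANCC and ATM stand lower, and the mean of CHEK1 goes from 8.35 to 8.19 under shCTRL and from 7.71 to 8.61 under the shIRF1 label.

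Several of these calls were lost on leaving out a single array. Under shCTRL, leaving out shCTRL replicate 1 ended the call of ATM (limma adjusted p = 0.052). PALB2 was lost without any of shCTRL 1, shCTRL 3, shCTRL_CDDP 1 or shCTRL_CDDP 3 (limma adjusted p = 0.0593 to 0.157), and REV1 without shCTRL 1, shCTRL 3, shCTRL_CDDP 1 or shCTRL_CDDP 2 (0.0591 to 0.131). RAD51C was lost on leaving out any of 9 arrays, all but shIRF1_CDDP 1, shIRF1_CDDP 2 and shCTRL_CDDP 3 (0.0523 to 0.133). Under the shIRF1 label, ATM was lost without shIRF1 3 (0.0619) or shIRF1_CDDP 1 (0.0629), PALB2 without shIRF1 1 (0.0655) or shIRF1_CDDP 1 (0.0706), and XPC without shIRF1 2 (0.0793) or shIRF1_CDDP 1 (0.0789). FAN1 was lost without shIRF1 1, shIRF1 2 or shIRF1_CDDP 1 (0.108 to 0.164), and ERCC2 without any of those or shIRF1_CDDP 2 (0.0744 to 0.121). FANCI and RAD51AP1 were lost without shIRF1 1, shIRF1 3, shIRF1_CDDP 2 or shIRF1_CDDP 3 (0.0961 to 0.128 and 0.0737 to 0.129), and MAD2L2 without any of those or shIRF1 2 (0.0505 to 0.0859). BLM was lost without any of 7 arrays, those 5 with shCTRL 3 and shCTRL_CDDP 2 (0.0566 to 0.182). The calls of EXO1, RAD54L, XRCC3, UBE2T, EME1 and FANCC in both comparisons, of XPC, ERCC2, FANCB and REV3L under shCTRL, and of CHEK1, FANCB, FANCE and RAD51C under the shIRF1 label passed without each array in turn. Under median scaling of the arrays in place of quantiles, FANCB under shCTRL (limma adjusted p = 0.0585) and FANCE under the shIRF1 label (0.0662) were also lost. Without background correction several rises of dim probes were smaller by over 1.5 times and still passed. EME1 gave 0.64 and 0.50, FANCB 0.43 and 0.56, ERCC2 0.52 and 0.37 and PALB2 0.37 and 0.41 under shCTRL and the shIRF1 label, and FAN1 gave 0.37 under the shIRF1 label. BLM gave 0.38 there and did not pass (limma adjusted p = 0.0568).

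Repair genes that rose did so beside genes of DNA replication. Of 22 tested S phase genes, 8 rose and 2 fell with CDDP under shCTRL, and 15 rose and 1 fell under the shIRF1 label. The shares that rose were 36.4% and 68.2%, beside 13.5% and 10.5% of all features. The shares that fell were 9.09% and 4.55%, beside 13.5% and 11.5%. Examples of S phase genes are CCNE1, the cyclin that starts S phase, with rises of 2.12 and 1.90, and FEN1, the flap nuclease of lagging strands, with 1.13 and 1.42. POLA1, the polymerase that primes synthesis, fell by 1.12 and 1.07. Under shCTRL the mean log2 intensity of the S phase list was 8.93 to 9.04 without CDDP and 9.15 to 9.73 with it, and under the shIRF1 label 8.42 to 8.69 and 9.34 to 9.46. The same mean over the 39 repair genes was 7.31 to 7.46 and 7.54 to 7.64, then 7.10 to 7.22 and 7.55 to 7.64. In both lists the treated arrays lay above the untreated, and the untreated arrays labelled shIRF1 lay lowest. Whether the share of cells in S phase sets the repair levels was not tested.

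**Figure D3:**
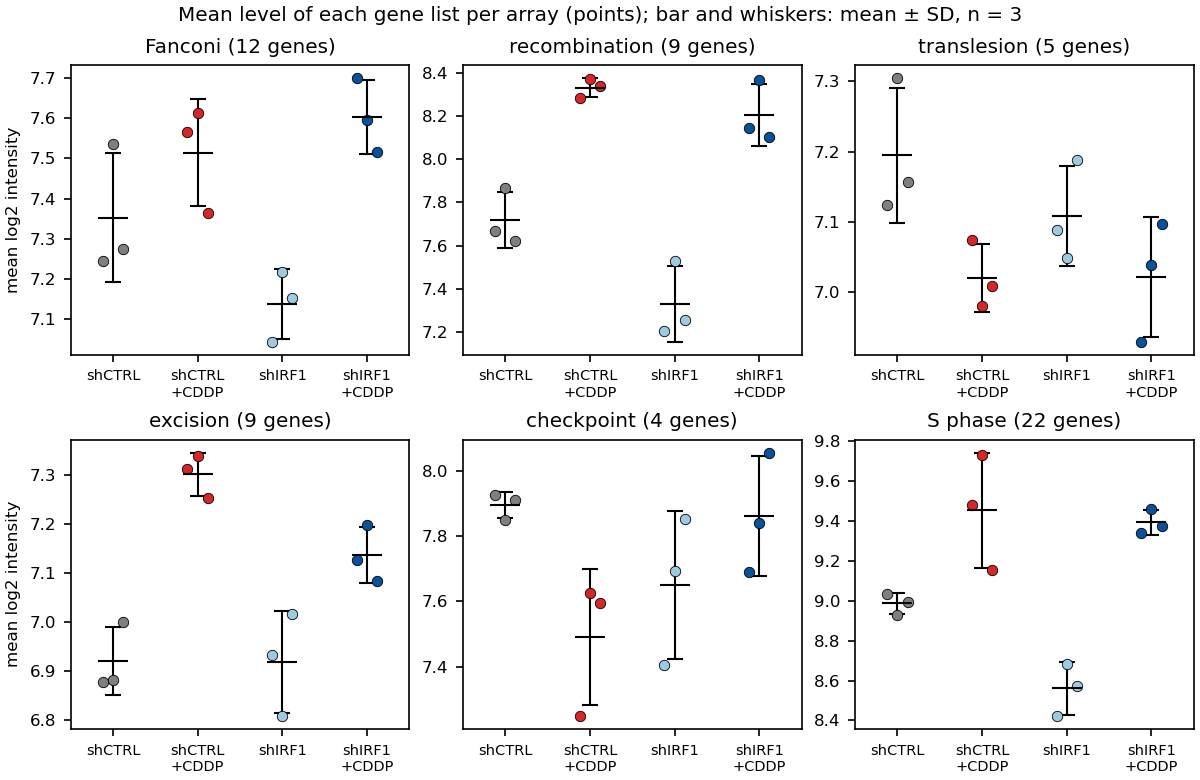
Mean log2 normalized intensity of the tested genes of each pathway and of the S phase list on every array (points), with mean ± SD over the 3 arrays of a group. Recombination genes rise from 7.62 to 7.86 without CDDP to 8.29 to 8.37 with it under shCTRL, and the untreated arrays labelled shIRF1 are lowest for recombination, Fanconi and S phase genes. On average translesion genes are lower with CDDP under both labels, and checkpoint genes are lowest with CDDP under shCTRL.

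The repair genes that fell with CDDP were long ones. REV3L, FANCC, FANCB, ATM and BRCA1 are the 5 tested members that span over 100 kb of GRCh38.p14, at 185, 219, 184, 146 and 126 kb. Of these 5 genes, 3 fell and 1 rose under shCTRL, and 2 fell and 1 rose under the shIRF1 label. Among all 2083 named genes of that span, 55.3% fell under shCTRL, with a median log2 change of -0.73, and 49.8% fell under the shIRF1 label, with a median of -0.61. FANCB, which rose by 0.89 and 1.36, belongs to the 1.54% and 1.39% of such genes called higher, and FANCC fell by more than the class median in both. REV1, at 89.7 kb, was the other gene that fell.

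None of the 25 repair genes under 50 kb fell in either comparison. Few named genes of those spans did. Under 20 kb 3.81% fell under shCTRL and 4.1% under the shIRF1 label, and at 20 to 50 kb 8.59% and 7.28%. The lack of falls is near those shares. The 17 genes of 20 to 50 kb had a median of 0.47 under shCTRL and 0.56 under the shIRF1 label, where all named genes of that span had 0.08 and 0.08, and the 8 genes under 20 kb had medians of 0.32 and 0.88 beside 0.23 and 0.16. Across the 39 genes the log10 span and the change correlated at -0.416 under shCTRL and -0.309 under the shIRF1 label, and across 12485 named genes at -0.453 and -0.415. All these points share the same arrays, so the correlations are descriptions.

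**Figure D4:**
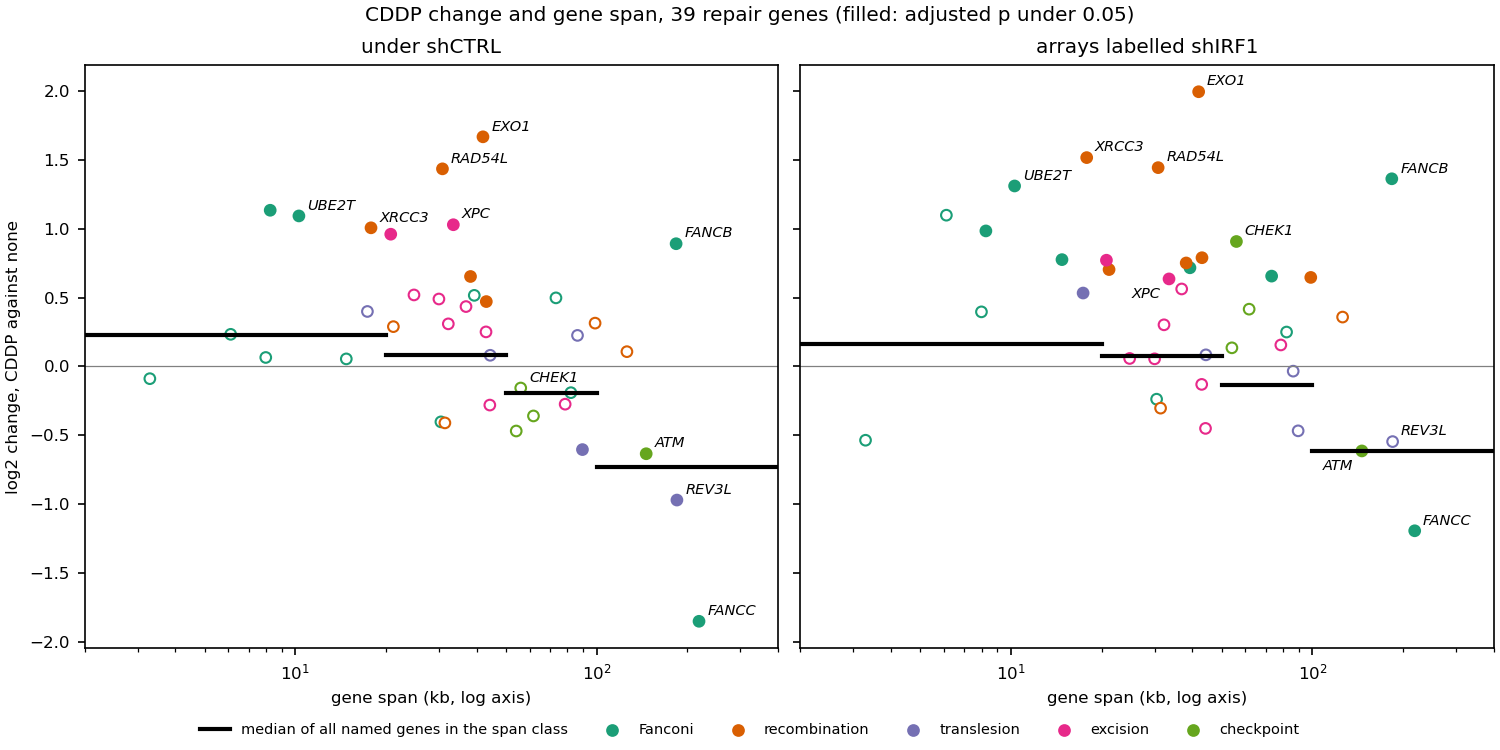
Log2 change with CDDP (vertical axis) against the span of the gene in kb (horizontal log axis) for the 39 repair genes, with black bars for the median of all named genes in 4 span classes. The bars step down from 0.23 to -0.73 under shCTRL and from 0.16 to -0.61 under the shIRF1 label, and FANCB stands above the bar of the longest class while FANCC stands below it.

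The next question was whether repair transcripts differed with the shRNA label in cells without CDDP. Here 5 of the 39 genes were lower on the arrays labelled shIRF1, none was higher, and 34 did not pass. Among all features 3.1% were called higher and 2.75% lower. The 5 were EXO1, XRCC3, FANCB, FANCE and CHEK1, and 30 of the 39 log2 differences were negative, with a median of -0.15 where the median of all features was 0.00. For 9 of the 39 genes (23.1%) the 2 groups lay fully apart, beside 25.1% of all features. IRF1 itself did not pass (log2 difference 0.10, limma adjusted p = 0.902).

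Among recombination genes, EXO1 and XRCC3 were lower by log2 differences of -0.94 (SE 0.213, limma adjusted p = 0.0153) and -0.85 (limma adjusted p = 0.0218), and 8 of the 9 genes had negative differences. The exception, XRCC2, gave 0.54 at its brightest probe and -0.16 at a dimmer one. EXO1 ran from 6.91 to 7.65 under the shIRF1 label and from 8.05 to 8.38 under shCTRL, so the groups lay apart, but its dimmer probe gave -0.33 (limma adjusted p = 0.53). BLM and BRCA1 gave -0.66 each and missed the threshold (limma adjusted p = 0.109 and 0.0866). BRCA1 read 6.72, 6.82 and 6.96 under the shIRF1 label and 7.08, 7.89 and 7.52 under shCTRL, without overlap, and its other probe passed with -0.85 (limma adjusted p = 0.00694). In the Fanconi pathway, FANCB and FANCE were lower by -0.84 (limma adjusted p = 0.0252) and -0.67 (limma adjusted p = 0.0294), while the other FANCB probe gave -0.33 (0.531). CHEK1 was lower by -0.64 (limma adjusted p = 0.0332), at 7.47 to 7.87 against 8.22 to 8.45, and no translesion or excision gene passed.

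These 5 calls lay near the threshold, and each was lost on leaving out any of several single arrays. Leaving out shIRF1 replicate 1 ended all 5, with limma adjusted p-values of 0.0928 for EXO1, 0.11 for XRCC3, 0.103 for FANCB, 0.142 for FANCE and 0.173 for CHEK1. EXO1 was also lost without shCTRL 1 or shIRF1 2 (0.0781 and 0.0563), XRCC3 without shCTRL 2, shCTRL 3 or shIRF1 3 (0.0695 to 0.101), and FANCE without any of the 6 arrays compared (0.0511 to 0.142). FANCB was lost without any of these but shIRF1 2, and CHEK1 without any but shIRF1 3 (0.0622 to 0.112 and 0.0615 to 0.173). Median scaling ended all 5 (0.0778 to 0.246). Of the 22 S phase genes, 2 were lower on the same arrays, MCM5, of the replicative helicase, at -1.26 and PRIM1, the primase, at -0.89, none was higher, and 20 did not pass. The share lower was 9.09%, beside 2.75% of all features. Of the 22 differences 21 were negative, with a median of -0.44. The part of S phase genes in the repair differences was not tested.

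With CDDP in both groups, 2 of the 39 genes were higher on the arrays labelled shIRF1, FANCC and TOPBP1, and none was lower. Among all features 1.65% were called higher and 2.2% lower, and the median of the repair genes was -0.01. FANCC read 5.79, 5.48 and 5.56 under the shIRF1 label and 5.11, 4.77 and 4.68 under shCTRL, a difference of 0.76 (SE 0.186, limma adjusted p = 0.0338). Under shCTRL 1 of the 3 arrays detected it, so the lower side rests on a dim probe. Over 22 alternative settings the difference ran from 0.28 to 0.89. The call was lost in 11 of them, among these no background correction, median scaling and array weights. TOPBP1 read 9.55, 9.62 and 9.74 against 8.79, 9.07 and 9.08, a difference of 0.66 (limma adjusted p = 0.034). Neither gene's groups overlapped, and for 12 of the 39 genes (30.8%) the groups lay fully apart, beside 21.2% of all features. FANCC was lost without shCTRL_CDDP 2 or 3 or shIRF1_CDDP 1 or 3 (limma adjusted p = 0.088 to 0.119), and TOPBP1 without any of the 6 arrays compared (0.0504 to 0.125). The 5 genes lower without CDDP gave -0.61 for EXO1, -0.34 for XRCC3, -0.36 for FANCB, 0.05 for FANCE and 0.42 for CHEK1 here, and none passed.

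**Figure D5:**
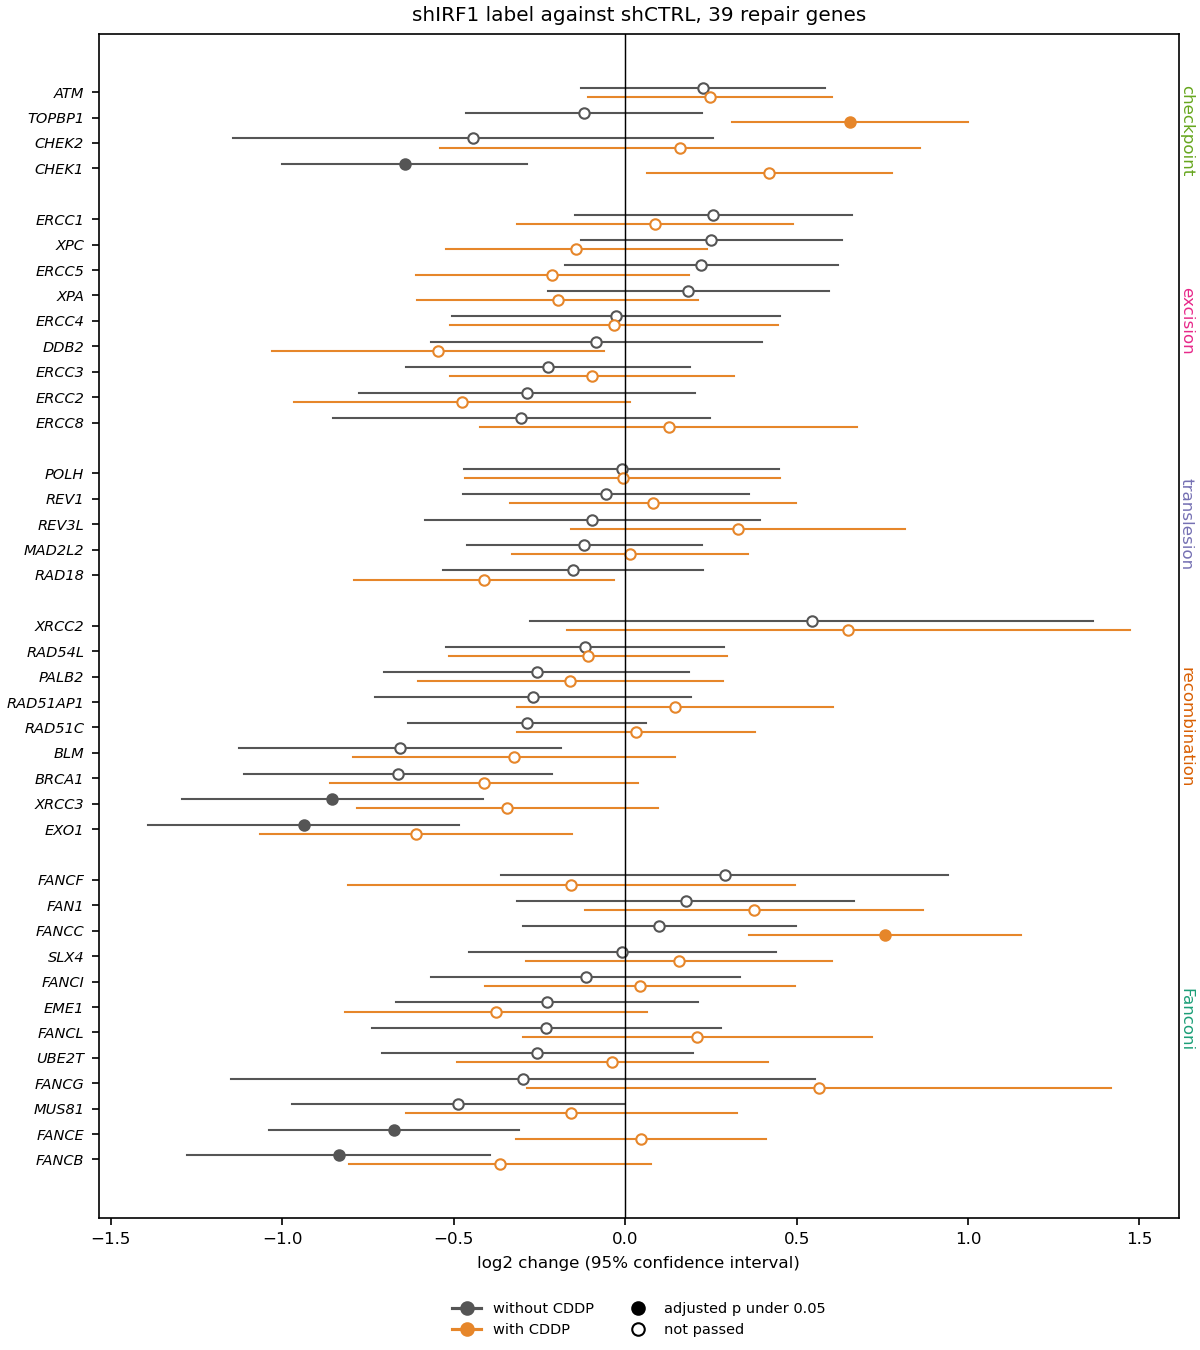
Log2 difference between the arrays labelled shIRF1 and those of shCTRL (horizontal axis, with 95% confidence intervals) for the 39 repair genes, in grey without CDDP and in orange with it, with filled points for an adjusted p under 0.05. The 5 filled grey points lie between -0.94 and -0.64, and the 2 filled orange points, FANCC and TOPBP1, at 0.76 and 0.66.

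The last comparison was whether CDDP changed a repair gene differently under the shIRF1 label than under shCTRL. None of the 39 genes passed in either direction in limma, and among all features 0.0667% were called. An unadjusted p under 0.05 was found for 4 of the 39 genes, a share near the 8.09% of all features. The 4 were CHEK1, TOPBP1, FANCE and FANCC. The difference of responses of CHEK1 was 1.06 on the log2 scale (SE 0.237, 95% interval 0.559 to 1.57, limma adjusted p = 0.166), with changes of -0.16 under shCTRL and 0.91 under the shIRF1 label. Its adjusted p ran from 0.0546 to 0.937 over the alternative settings. TOPBP1 differed by 0.78 (limma adjusted p = 0.383), FANCE by 0.72 (limma adjusted p = 0.448) and FANCC by 0.66 (limma adjusted p = 0.544).

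The difference was positive for 29 of the 39 genes and for 8906 of all 17988 features. By pathway it was positive for 9 of 9 recombination genes (median 0.32), 10 of 12 Fanconi genes (median 0.27), 4 of 5 translesion genes (median 0.13) and all 4 checkpoint genes (median 0.69), and negative for 7 of 9 excision genes (median -0.19). These signs are those of the brightest probes. The other EXO1 probe gave -0.05 where the brightest gave 0.33. Other ERCC1 probes gave -0.44, 0.54 and -0.27 where the brightest gave -0.17. The remaining repair genes with several probes kept their signs. S phase genes were positive in 19 of 22 (median 0.42). Each difference uses the same untreated arrays labelled shIRF1 on which 5 repair genes and 2 S phase genes were lower, so it is no separate evidence. For RAD54L the difference was 0.01 with a 95% interval of -0.57 to 0.58, for ATM 0.02 (-0.48 to 0.52) and for POLH 0.00 (-0.65 to 0.65), and differences beyond these bounds lie outside the intervals.

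Of 51 other genes of the same pathways that were tested, 13 rose (25.5%) and 7 fell (13.7%) with CDDP under shCTRL, beside 13.5% and 13.5% of all features, with a median of 0.07. With the shIRF1 label 15 rose (29.4%) and 3 fell (5.88%), beside 10.5% and 11.5%, with a median of 0.21. The share that fell under shCTRL was near that of all features. The largest rises were those of CDC25A, the phosphatase that drives cells through S phase, at 1.80 and 2.65. RMI2 and RMI1, partners of BLM, rose by 1.48 and 1.46 under shCTRL, and FAAP24, which anchors the Fanconi core, and RMI2 by 1.62 and 1.35 under the shIRF1 label. MNAT1, a kinase subunit of TFIIH, read 8.46, 8.41 and 8.50 without CDDP and 5.99, 6.06 and 7.19 with it under shCTRL, and was lowest among the falls in both comparisons, at -2.04 and -1.58. RAD51B, of recombination, fell by 0.86 and 0.64, and RAD23B, the partner of XPC, by 0.85 and 1.01. Between the shRNA labels without CDDP, MRE11, a nuclease that starts resection, was lower by -0.78 (limma adjusted p = 0.0141) and FAAP20, of the Fanconi core, higher by 0.78 (limma adjusted p = 0.041). With CDDP, TP53BP1, which limits resection, was higher by 0.94 (limma adjusted p = 0.0364) and no other passed.

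At their brightest probes, 22 of the 39 genes passed in at least 1 comparison and 17 in none. The matching share of all features was not counted. With CDDP under shCTRL alone, 27.0% of all features were called. The 17 are FANCF, FANCG, FANCL, SLX4 and MUS81 of the Fanconi pathway, BRCA1 and XRCC2 of recombination, POLH and RAD18 of translesion synthesis, ERCC1, ERCC3, ERCC4, ERCC5, ERCC8, XPA and DDB2 of excision repair, and CHEK2. That these missed the threshold does not show that they did not change: the 95% interval for XRCC2 with CDDP under shCTRL reached from -1.23 to 0.41, and that for CHEK2 from -1.17 to 0.23. Another probe of ERCC1 and another of CHEK2 passed with CDDP under shCTRL. Another BRCA1 probe passed between the shRNA labels without CDDP.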

How the data were processed

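Total RNA of the 12 samples was turned into biotinylated cRNA with the Ambion messageAmp kit and read on Illumina arrays, per the labels' protocols, and read out in BeadStudio 2, per the submitters' processing notes. Per the file headers, the deposited values are mean bead intensities on a linear scale, before normalization, each with a detection p-value against the negative controls. A second deposited intensity, that of the authors' series matrix, was tried as an alternative. The probe annotation gave 1 symbol to 30109 of 47313 probes, several to 8 and none here to 17196, and symbols were updated through Entrez identifiers for 30070.

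Normalization used limma 3.58.1 under R 4.3.3, through neqc (normexp background, offset 16, quantiles, log2). Probes detected at p under 0.05 on at least 3 arrays were kept, the brightest per symbol, which left 17988 features. Here 10 repair genes have several such probes and 29 have 1. Group means were fitted over all 12 arrays by lmFit, then eBayes, with 8 residual degrees of freedom and 7.18 from the prior, and p-values adjusted by Benjamini-Hochberg over all features, two-sided. For a group in which no array detected a probe, the change is a bound against the lowest detected signal.

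The members, lists, tests and alternatives were chosen with earlier results of these data known. The rule for names took IRF1, all 45 members, the 3 largest called rises and falls of the wider repair list and up to 3 S phase examples per comparison. Same-numbered arrays of shCTRL with and without CDDP deviated together (correlations of 0.159 to 0.208 in all 3 pairs), so their numbers pair the samples there. In the other comparisons not every pair passed 0.1. All calls come from the fit without a block, and blocked values stand beside results whose call they change. On simulated data for CDDP under shCTRL, 200 of 17988 features were changed. The model recovered 65% of changes of size 1 (log2) and 99% of size 2, with 5 false calls. In the data 4849 features were called in that comparison, so the adjustment differs and these rates need not hold there. No column of values lacked a sample.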

Additional observations from a re-analysis of the deposited data

How the results depend on the processing

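Of 40 called changes of single repair genes, 17 passed under all settings in which the gene was tested and 23 were lost in at least 1. Of those 17, the changes of FANCC and EME1 with CDDP, of FANCB under the shIRF1 label and of REV3L under shCTRL had no value under the stricter detection rule, where these genes were not tested. The count of 10 genes higher with CDDP under shCTRL ran from 8 to 12 on leaving out 1 array, and the 4 lower became 2 with a detection p-value under 0.01 on all 12 arrays and 2 to 4 on leaving out 1 array, 2 without shCTRL replicate 1. Median scaling gave 7 higher and 3 lower there. Under the shIRF1 label the 17 higher became 9 with median scaling and 10 to 19 on leaving out 1 array, 10 without shIRF1 replicate 1. The 2 lower became 1 with median scaling, with the stricter detection rule and, in an alternative chosen after seeing the data, without the 2 arrays of lowest weight, and 1 to 2 on leaving out 1 array. Without CDDP the 5 genes lower under the shIRF1 label became 0 with median scaling and 0 to 5 on leaving out 1 array, 0 without shIRF1 replicate 1. With CDDP the 2 higher became 1 without background correction, with the series matrix values, with the stricter detection rule, with an intensity trend in the variance or with array weights, and 0 with median scaling, with only the groups compared or without the 2 arrays of lowest weight, and 0 to 2 on leaving out 1 array. The 0 lower there became 1 without background correction. The difference of responses kept 0 calls under each setting run for it; the fit of only the groups compared was not run, since it uses all 4 groups. The only change that turned was RAD51C with CDDP under shCTRL, which gave -0.070 with the second brightest probe. The replicate block gave 12 higher and 4 lower with CDDP under shCTRL and 18 and 2 under the shIRF1 label, and elsewhere changed no count. Without the 2 arrays of lowest weight the counts were 12 and 4, then 14 and 1. Over all features, median scaling turned the split with CDDP under shCTRL from 2425 higher and 2424 lower to 1287 and 2056 (38.5% higher). The causes were not tested. Without background correction FANCC fell by 0.82 in place of 1.85 and REV3L by 0.37 in place of 0.97 (log2, CDDP under shCTRL), and both passed. Dim probes limit the bounds: FANCB, FANCC, FANCF, REV3L, RAD18, ERCC4 and CHEK2 were detected on 10, 10, 10, 8, 3, 5 and 11 arrays.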
